A study of Lotus japonicus with 6 samples.

Results

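NIN and NF-YA1, a pair of transcription factor genes of legume nodules, were measured by RNA-seq in Lotus japonicus, a legume used as a model of the symbiosis with nitrogen-fixing rhizobia, which live in its root nodules. They were taken as all rows of the deposited table whose identifier before the first dot was Lj2g3v3373110 (NIN) or Lj5g3v0841080 (NF-YA1), which gave 3 of 46398 transcripts and 2 of 37427 loci. NIN had 1 transcript, Lj2g3v3373110.1, and NF-YA1 had 2, Lj5g3v0841080.1 and Lj5g3v0841080.2. No locus was absent, and each passed the filter on low counts with at least 1895 counts in every library. The table holds identifiers only, and 0 of its loci matched the reference gene table of accession Gifu, so the 2 names rest on the MG-20 identifiers listed for these genes and were not checked against an annotation. By the usual reading of such identifiers, NIN lies on chromosome 2 and NF-YA1 on chromosome 5.

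All nodules were collected 3 weeks post-inoculation from lines in the MG-20 background. The control group was a GUS-OE line, which overexpressed the reporter GUS (n = 3 libraries), and the other group was a NAC-OE line, which overexpressed a NAC transcription factor (n = 3 libraries), named NAC094 in the study's title. The study asked how ectopic NAC094 expression relates to premature nodule senescence. The labels do not give the promoter used, the number of independent transformants or the rhizobial strain. Nor do they say from which plants each library came, so the p-values measure the spread between these libraries, which may be technical. The overexpressed NAC gene and the markers of nodule tissue, such as leghaemoglobins, were not analysed here because no identifier was annotated.

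NIN (NODULE INCEPTION) is an RWP-RK transcription factor that is needed for rhizobial infection and for the cell divisions that start a nodule. NF-YA1 is the DNA-binding A subunit of NF-Y, a complex of A, B and C subunits that binds CCAAT boxes, and it promotes cell division in the nodule primordium. In L. japonicus NF-YA1 is known as a direct target of NIN. NIN also acts in the systemic control of nodule number through CLE peptide genes.

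The counts of the 2 genes moved in opposite directions in NAC-OE nodules. With scaling factors between libraries, NIN was at 0.67 of the GUS-OE level and NF-YA1 at 1.58 times that level. By library size alone, NIN was at 0.82 and NF-YA1 at 1.92 times the GUS-OE level. A neighbouring locus had counts near equal to those of NIN, so the change of NIN itself is uncertain, as described further on. Neither change was large for these libraries, in which 61.6% of the tested loci were called as different. The call of NIN was lost when no scaling factor was used, while that of NF-YA1 was kept. The ratio of NF-YA1 to NIN within a library, which needs no scaling between libraries, was 2.35-fold higher in NAC-OE. How far ratios of other pairs of loci shifted was not tested. In whole nodules, fewer cells that express a gene and less RNA per cell cannot be told apart.

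NIN, the upstream factor, ranked above most loci in abundance, at a level that depends on a neighbouring locus of near-equal counts described further on. Its FPKM, the deposited count divided by transcript length and library total, was 23.67, 23.51 and 24.51 for replicates 1, 2 and 3 of GUS-OE. For replicates 1, 2 and 3 of NAC-OE it was 21.02, 18.12 and 19.3. Every NAC-OE library lay below every GUS-OE library, with NAC-OE replicate 1 the closest to the controls. With counts scaled by library size alone, the same held for 26.5% of all tested loci. The GUS-OE mean was 23.9 ± 0.54 FPKM and the NAC-OE mean 19.5 ± 1.46 FPKM (SD, n = 3 each). The counts behind these levels were 2433.5, 2579 and 2747.08 in the controls, against 2294.75, 1895 and 2210.25 in NAC-OE. Ranked by mean FPKM, NIN stood at place 6058 of 37427 loci in GUS-OE, above 83.8% of them, and at place 7539 in NAC-OE, above 79.9%. Its place lay between 5949 and 6153 in the single GUS-OE libraries, against 7185 to 7724 in those of NAC-OE.

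For the test, counts were summed per locus and scaled with TMM factors, which set libraries to a common level under the assumption that most loci do not differ, whereas 61.6% of the tested loci were called in these data. On that scale, in CPM (scaled counts per 1000000 counts), the GUS-OE mean of NIN was 76.3 ± 4.18 and the NAC-OE mean 51.2 ± 3.09 (SD, n = 3 each). NIN fell by 0.58 on the log2 scale (SE 0.13, edgeR quasi-likelihood test, Benjamini-Hochberg adjusted p = 0.0034). The 95% interval of the NAC-OE to GUS-OE ratio was 0.547 to 0.822. The fit of single transcripts gave -0.62 for Lj2g3v3373110.1 (SE 0.13, edgeR adjusted p = 0.0025). Among all tested loci, 30.4% were called lower in NAC-OE and 31.2% higher, and among all tested transcripts 30.7% and 31.5%, so a call by itself did not set either gene apart. Of the tested loci 68.0% had a larger absolute log2 fold change than NIN. Of these loci 0.548% had a smaller standard error than NIN, and 5.99% a smaller one than NF-YA1.

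The call of NIN depended on the scaling. With library size alone, the GUS-OE mean of NIN was 69.1 ± 1.55 CPM and the NAC-OE mean 56.5 ± 4.23 CPM (SD, n = 3 each), and its log2 fold change was -0.29 (SE 0.13, edgeR adjusted p = 0.077). By that scaling 23.3% of loci were called lower and 38.1% higher. The groups did not overlap for NIN on that scale either, with NAC-OE wholly below GUS-OE for 26.5% of loci and wholly above for 41.6%. TMM factors were 0.872 to 0.957 for GUS-OE libraries, against 1.03 to 1.16 for NAC-OE libraries, and without them the median log2 fold change of all tested loci moved from 0.01 to 0.29. The calls over all loci moved with it, from 11650 higher and 11368 lower to 14229 higher and 8709 lower. Relative to the median locus, NIN stood at -0.58 with either scaling. Since a change of scaling shifts all loci nearly alike, this was fixed in advance and is no check.

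NF-YA1, the downstream factor, was the more abundant of the pair. Summed over its 2 transcripts, its FPKM was 145.28, 155.05 and 139.6 for replicates 1, 2 and 3 of GUS-OE. For replicates 1, 2 and 3 of NAC-OE it was 311.01, 251.23 and 281.88. The lowest NAC-OE library was well above the highest GUS-OE library, and the NAC-OE libraries were the more spread out. In CPM by library size alone, every NAC-OE library lay above every GUS-OE library for 41.6% of all tested loci. The GUS-OE mean was 146.6 ± 7.81 FPKM and the NAC-OE mean 281.4 ± 29.9 FPKM (SD, n = 3 each). By mean FPKM, NF-YA1 rose from place 1182 of 37427 loci in GUS-OE to place 632 in NAC-OE, which is above 98.3% of loci. Its place was 1154 to 1231 in the single GUS-OE libraries, against 577 to 716 in those of NAC-OE.

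**Figure D1:**
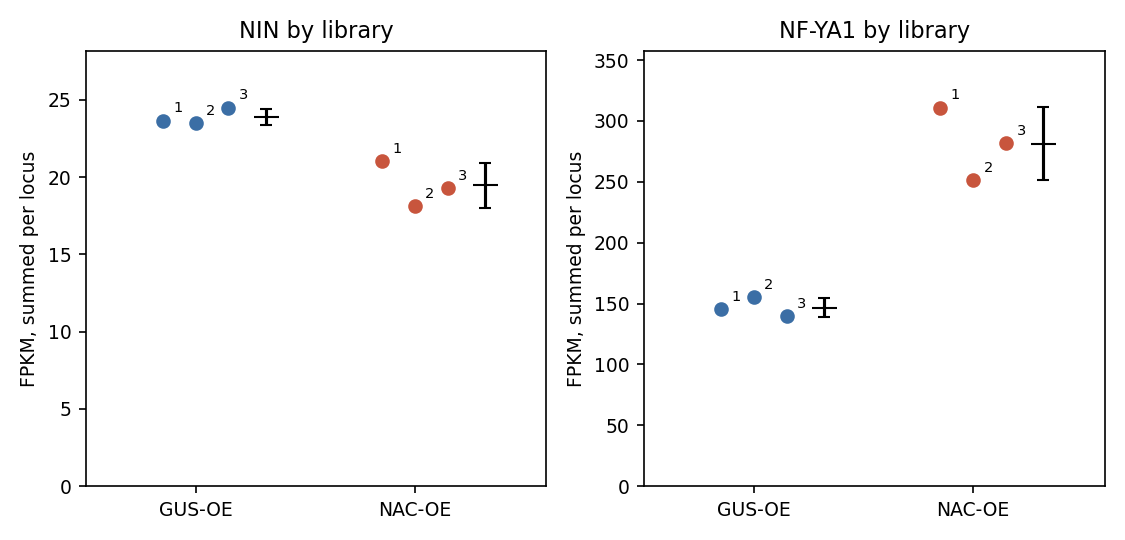
FPKM summed per locus (y axes, starting at 0) for NIN (left) and NF-YA1 (right) in the 3 GUS-OE and 3 NAC-OE libraries. Points are libraries, labelled by replicate number, and bars give mean ± SD (n = 3). For NIN the 3 NAC-OE points (18.12 to 21.02) lie below the 3 GUS-OE points (23.51 to 24.51), and for NF-YA1 they (251.23 to 311.01) lie above them (139.6 to 155.05).

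On the TMM scale the GUS-OE mean of NF-YA1 was 276 ± 23.7 CPM and the NAC-OE mean 435 ± 34.0 CPM (SD, n = 3 each). Its log2 fold change was 0.66 (SE 0.15, edgeR adjusted p = 0.0032), and the 95% interval of the fold was 1.25 to 1.98. With library size alone the GUS-OE mean was 249.98 ± 13.3 CPM and the NAC-OE mean 480.4 ± 51.0 CPM (SD, n = 3 each). The log2 fold change was then 0.94 (SE 0.14, edgeR adjusted p = 0.00023), a fold of 1.92 with a 95% interval of 1.54 to 2.39. NF-YA1 was thus called higher with either scaling. Relative to the median locus it stood at 0.65 in each, which the arithmetic of scaling nearly fixes in advance. Of the tested loci 64.2% had a larger absolute log2 fold change than NF-YA1.

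With the tested loci split by abundance into 4 equal classes, both genes belonged to the most abundant class, that of 17.5 CPM and above. In that class 42.5% of 9347 loci were called lower and 32.8% higher, and the median absolute log2 fold change was 0.92. The changes of NIN and NF-YA1 were smaller than that median. Every NAC-OE library lay below every GUS-OE library for NIN, as for 34.1% of all tested loci, and above for NF-YA1, as for 34.3%. Tested against a 2-fold change with edgeR's glmTreat, neither gene was called (adjusted p = 1 for each), while 13.7% of loci were called lower and 16.2% higher by that test.

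**Figure D2:**
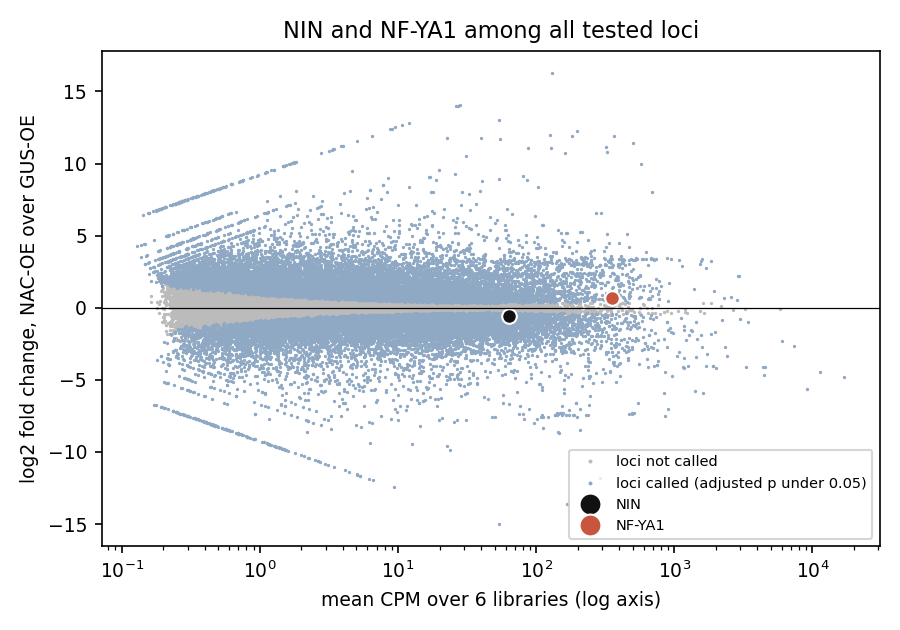
Log2 fold change of NAC-OE over GUS-OE (y axis) against mean CPM over the 6 libraries (x axis, log scale) for 37386 tested loci, with called loci in blue and the rest in grey. NIN (black, -0.58) and NF-YA1 (red, 0.66) lie on opposite sides of 0, closer to it than most loci.

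The opposite changes were compared directly by the ratio of NF-YA1 to NIN within each library, on the FPKM scale. The ratio was 6.14, 6.60 and 5.70 for replicates 1, 2 and 3 of GUS-OE. For replicates 1, 2 and 3 of NAC-OE it was 14.8, 13.9 and 14.6. No NAC-OE library came near a GUS-OE library, and the spread within each group was small. How often ratios of other pairs of loci separate as far was not tested. Single loci often moved by much, with a median absolute log2 fold change of 0.97 over all tested loci. The mean ratio was 6.14 ± 0.45 for GUS-OE and 14.4 ± 0.49 for NAC-OE (SD, n = 3 each), a difference of 1.23 on the log2 scale or 2.35-fold. By an exact permutation test, two-sided, this had p = 0.1, and 3 against 3 libraries cannot give a smaller p. On the FPKM scale, replicate 1 was the highest NAC-OE library and replicate 2 the lowest for both genes. On the TMM scale replicate 3 was lowest for NIN (48.3 CPM). For NF-YA1, replicates 2 and 3 were then near equal (415.1 and 415.3 CPM).

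**Figure D3:**
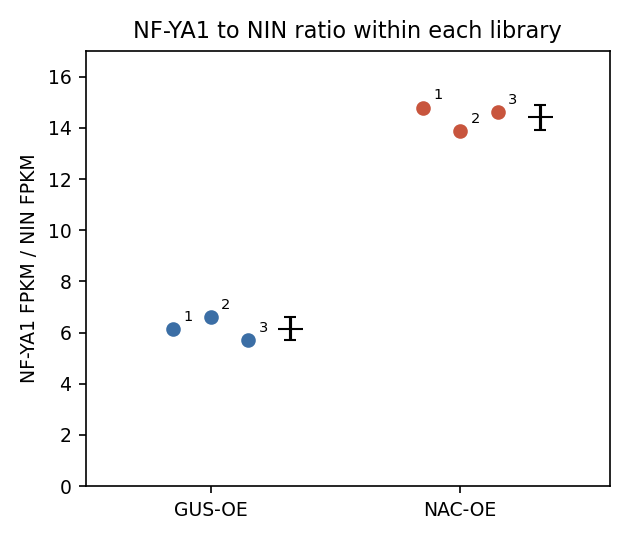
Ratio of NF-YA1 FPKM to NIN FPKM within each library (y axis, starting at 0) for GUS-OE and NAC-OE. Points are libraries, labelled by replicate number, and bars give mean ± SD (n = 3). The 3 NAC-OE libraries lie between 13.9 and 14.8, and the 3 GUS-OE libraries between 5.70 and 6.60.

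The 2 transcripts of NF-YA1 could not be told apart in these data. Lj5g3v0841080.1 had 4401, 5010.5 and 4607 counts in the controls, against 10002.5, 7739.5 and 9511.5 in NAC-OE. Lj5g3v0841080.2 had 4399, 5010.5 and 4611 counts in the controls, against 9995.5, 7740.5 and 9506.5 in NAC-OE. Their difference was at most 7 counts in any library, and the first transcript held between 49.978% and 50.018% of the locus. Both counts ended in 0.5 in GUS-OE replicate 2 and in the 3 NAC-OE libraries and were whole in GUS-OE replicates 1 and 3, and the sum per locus was a whole number in all 6 libraries.

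Lengths derived from the counts, FPKM and summed counts were 1703 to 1706 bases for the first NF-YA1 transcript and 1705 to 1708 for the second, so the models are of nearly equal length. Fitted singly, each transcript gave a log2 fold change of 0.61 (SE 0.15, edgeR adjusted p = 0.0048). These are not independent measurements. Of 1232 loci with exactly 2 transcripts and a mean count of at least 1000, 23.4% had 2 counts within 0.1% of each other in every library, so such even pairs were common.

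NIN had a near-equal partner as well, but at another locus. Lj2g3v3373100, the locus just before NIN in identifier order, had 2435, 2579 and 2748.58 counts in the controls, against 2295.25, 1895 and 2210.25 in NAC-OE. It was singled out after its values were seen, and the files give it no name. It differed from NIN by at most 1.5 counts in any library, and its 1 transcript had a derived length of 2966 to 2972 bases against 2893 to 2898 for NIN. Such pairs were rare among loci that the usual reading of identifiers places on a chromosome, the only ones paired. Of 10229 pairs next to each other in identifier order, 30, or 0.293%, had counts within 0.1% of each other in every library. All 10229 had a mean summed count of at least 1000. Loci without a chromosome were left out, so the share over all loci was not counted. NIN's own counts were whole in 2 of 6 libraries and fractional in the other 4. Whether the 2 rows hold shares of the same reads was not tested, since neither the annotation nor the reads were used here, and without strand, loci on opposite strands of one stretch cannot be told apart.

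The level of NIN depends on how this partner is treated. With the partner added, FPKM was 46.77, 46.44 and 48.43 in the controls, against 41.53, 35.79 and 38.12 in NAC-OE. The ratio of NF-YA1 to this sum was 3.11 ± 0.23 for GUS-OE and 7.30 ± 0.25 for NAC-OE (SD, n = 3 each). NF-YA1 stayed the more abundant per length in each library. Because the 2 rows are near equal, their sum has the same fold change as NIN by construction and says nothing on which locus the reads come from. If they come from the partner, the change of NIN itself is not known from these data.

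**Figure D4:**
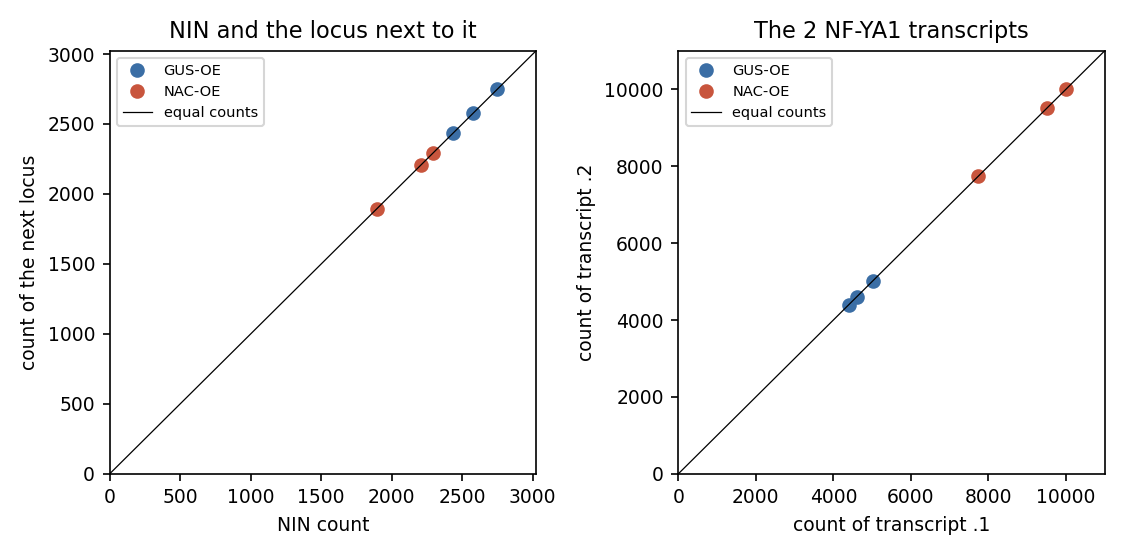
Left, count of the locus just before NIN (y axis) against the count of NIN (x axis). Right, count of the second NF-YA1 transcript against the first. Points are the 6 libraries and the line marks equal counts. All points lie on the line, within 1.5 counts on the left and 7 on the right.

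The loci around the 2 genes were called in either direction. Of the 10 loci nearest to NIN in identifier order, 5 on each side, 3 were called higher, 1 lower and 6 neither way (edgeR, adjusted p under 0.05), with log2 fold changes from -0.58 to 1.75 (median 0.46). Over all tested loci 31.2% were called higher and 30.4% lower, and 10 loci are too few to set apart from that. The 1 that fell was the near-equal partner. Of the 10 nearest to NF-YA1, 4 were called higher, 1 lower and 5 neither way, with log2 fold changes from -1.63 to 1.74 (median -0.23).

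The patterns most like those of the 2 genes were found by the distance between log2 CPM profiles centred on their mean over the 6 libraries, among 8527 loci with whole counts and a mean count of at least 50. Nearest to NIN among these was Lj3g3v1149140, with 4251, 4290 and 4476 counts in the controls, against 3998, 3133 and 3820 in NAC-OE, at a distance of 0.097 against a median of 1.28 over the candidates. The near-equal partner of NIN was not a candidate, since its counts were not whole in every library. Nearest to NF-YA1 was Lj0g3v0185399, with 613, 676 and 613 counts in the controls, against 1318, 1028 and 1303 in NAC-OE, at a distance of 0.069 against a median of 1.63. The files give no name for either locus. Each was picked as the smallest of 8527 distances, so a value below the median was fixed in advance. The likeness is a description over 6 libraries that fall into 2 groups.

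**Figure D5:**
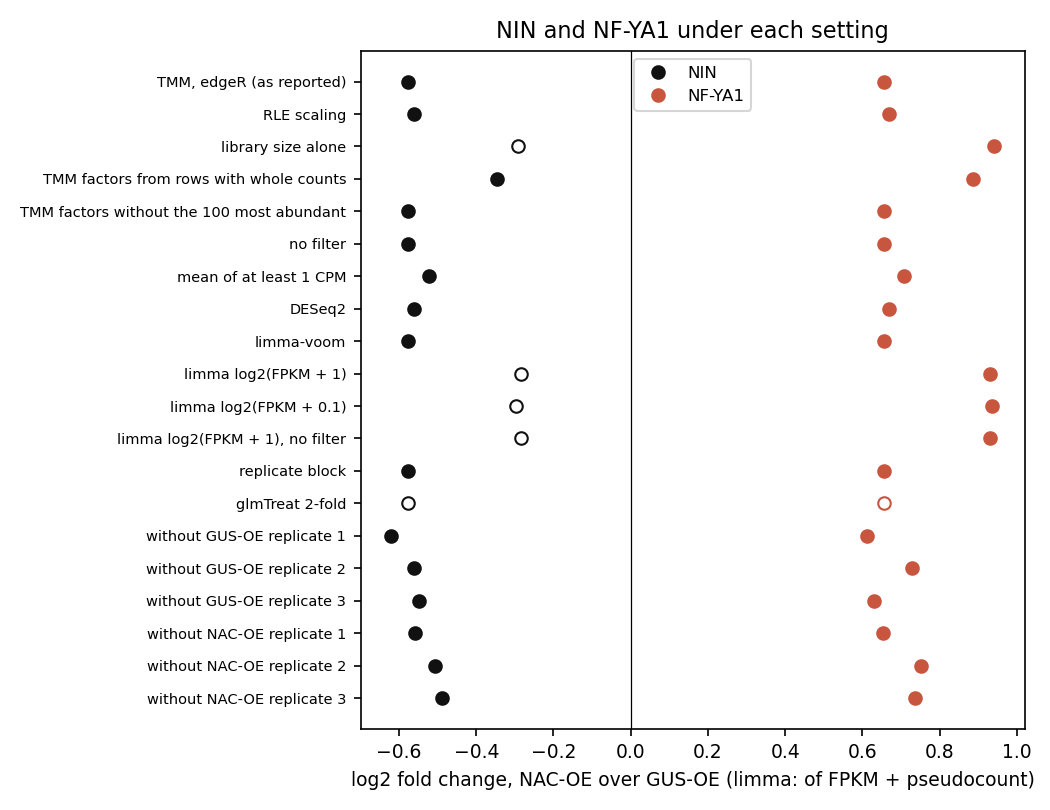
Log2 fold change of NAC-OE over GUS-OE (x axis) for NIN (black) and NF-YA1 (red) under each way of scaling, filtering and testing (y axis). Filled points have an adjusted p under 0.05 and open points do not. NIN ranges from -0.62 to -0.28 and NF-YA1 from 0.61 to 0.94, with no change of sign.

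Across the settings plotted by scaling, filter, test and library left out, NIN was negative and NF-YA1 positive in each. The size of either change moved with the scaling, in opposite senses: with library size alone, with FPKM and with TMM factors from rows of whole counts, NIN was closer to 0 and NF-YA1 farther from it. Relative to the median locus of the same setting, NIN lay between -0.63 and -0.46 and NF-YA1 between 0.59 and 0.76. For settings that differ in scaling alone, this closeness is no check.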

How the data were processed

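Root nodule RNA of 3 GUS-OE and 3 NAC-OE libraries was sequenced. Trimming, alignment and counting used fastp 0.22.0, HISAT2 and featureCounts, per the submitters' processing notes. No settings, annotation, build or use of strand were stated, so reads of an antisense gene cannot be told apart. The deposited estimated counts, 1 row per transcript per the file headers, are partly fractional (51.3% to 52.7% of values per library were not whole within 1e-09). The FPKM values were deposited by the authors, per the file headers, and were summed per locus. Library totals were 35531188 to 39513316 counts. No reference sequences were used.

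Counts were summed per locus and rounded, and the test was that of edgeR 4.0.16, run in R 4.3.3 (glmQLFit and glmQLFTest, robust, TMM factors, filterByExpr with minimum count 10, group alone, Benjamini-Hochberg over 37386 tested loci, threshold 0.05). Single transcripts were fitted the same way over 46346 rows. Standard errors were derived from the log2 fold change and the F statistic of the test, and the intervals were built from them. The steps were tested on simulated data in which few loci differed, equally in both directions. That simulation could not test the scaling for data in which most loci are called. Alternatives used DESeq2 1.42.0 and limma 3.58.1. Profiles used a prior count of 2. Named loci are the members, their transcripts and the nearest profile to each, plus 1 locus chosen after its values were seen. Members and lists were chosen with earlier results of these data known. The labels give no batch, so none was tested. Correlations of log2 CPM between libraries were 0.961 to 0.977 within a group, against 0.755 to 0.795 across groups.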

Additional observations from a re-analysis of the deposited data

How the results depend on the processing

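The log2 fold change was negative for NIN and positive for NF-YA1 under every alternative run (19 for each, beside the added locus). NIN lost its call with library size alone (-0.29, edgeR adjusted p = 0.077) and with limma on log2(FPKM + 1) (-0.28, adjusted p = 0.083, and 0.078 without the filter) or log2(FPKM + 0.1) (-0.30, adjusted p = 0.079); these use no TMM factor. With TMM factors from rows with whole counts it was -0.35 (edgeR adjusted p = 0.033). Tested against a 2-fold change (glmTreat), NIN (-0.58) and NF-YA1 (0.66) lost their calls, and 6063 loci were higher and 5131 lower. Leaving out 1 library gave -0.62 to -0.49 for NIN (edgeR adjusted p 0.0068 to 0.021), 0.61 to 0.75 for NF-YA1 (0.0014 to 0.024), 1.18 to 1.29 for the log2 ratio, and 10302 to 11730 loci higher and 9659 to 10747 lower. With the replicate number as a block, NIN was -0.58 (edgeR adjusted p = 0.011) and NF-YA1 0.66 (edgeR adjusted p = 0.0096). The block on the log2 ratio gave 1.23 with an exact p of 0.25, the smallest that 3 pairs allow. It changed no call. Same-numbered libraries' deviations correlated at -0.02, 0.08 and -0.02, so the numbers were not taken as pairs. Adding the locus next to NIN was chosen after seeing the data, and its near-equal counts fixed the fold in advance, so it is no check. Levels rest on an unstated rule for dividing reads.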
